A study of Malus domestica with 6 samples.

Results

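This account covers 32 genes of apple (Malus domestica) fruit skin that encode enzymes which oxidise small molecules or attach a sugar or glutathione to them, out of 1261 gene models in the deposited table. They were chosen by the description of their closest Arabidopsis match: UDP-dependent glycosyltransferases, glutathione S-transferases, cytochrome P450s and 2-oxoglutarate dependent dioxygenases. Of 38 rows that matched these words, 6 P450 rows were left out by symbol (CYP86A1, CYP86B1, CYP716A1 and CYP707A3). The classes held 7 P450s, 5 dioxygenases, 14 glycosyltransferases and 6 glutathione S-transferases. The outer skin (exocarp) was peeled from fruit of 6 varieties and its RNA sequenced. The 3 fully russeted varieties, with a rough and corky skin, were St Edmund Pippin, Reinette Parmentier and Patte de Loup, and the 3 fully waxy ones, with a smooth skin, were AG94, AF42 and Gala. All fruit came from the orchards of 1 research centre in the same month.

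Cytochrome P450s use a haem iron, and 2-oxoglutarate dependent dioxygenases a free iron centre, to put oxygen into a substrate, and both families include enzymes that make or remove plant hormones. UDP-dependent glycosyltransferases move a sugar onto hormones, flavonoids, lignin precursors and foreign compounds, which changes their solubility and activity. Glutathione S-transferases join glutathione to reactive compounds or carry flavonoids, and ABC transporters can then move such conjugates into the vacuole.

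Each variety gave 1 library, so the spread below is that between varieties of a skin type (n = 3 each), and skin type and the varieties' other differences cannot be told apart. Per the file header, the table lists genes the authors found to differ between the skin types in these same libraries, so a test here describes genes already picked for a difference. In the authors' deposited table, false discovery rates reach 0.1999 and the smallest log2 fold is 1 in size, so smaller folds are absent from it. Recovered totals of mapped reads ran from 11325500 to 19050536 in russeted and from 9441891 to 16757238 in waxy libraries. Levels are RPKM, reads per kilobase of gene scaled to the library's mapped reads. Folds were tested with edgeR's quasi-likelihood test over 1246 genes, scaled by mapped reads, and "rose" or "fell" means a Benjamini-Hochberg adjusted p under 0.05. In bulk tissue, fewer cells of a type and less RNA per cell cannot be told apart. Of 9 listed marker genes of the cuticle-forming epidermis 8 fell, with a summed level of 93.8 to 367 RPKM in russeted and 1384 to 2485 RPKM in waxy libraries, and all 7 cork markers rose (89.8 to 363 RPKM in russeted, 5.79 to 37.3 RPKM in waxy libraries). The cork markers are gene models matched to CYP86A1, CYP86B1, MYB93 and GPAT5, some of them copies with the same match. They include the CYP86A1 and CYP86B1 rows left out of the P450s. Phloem markers rose in 2 of 4 genes (50.3 to 102 RPKM in russeted, 15.0 to 30.6 RPKM in waxy libraries). Among 14 genes matched by the words for dividing cells 5 rose (487 to 822 RPKM in russeted, 199.6 to 379 RPKM in waxy libraries). The words also took in CDF2 and CDF3, described as cycling DOF factors, and HUB2, described as histone mono-ubiquitination 2. The highest levels on this list were those of a histone gene (MDP0000238589, 266 RPKM on average in russeted and 136 RPKM in waxy skin) and HIS1-3 (217 and 60.3 RPKM). Neither was past the threshold, so the sum is no measure of dividing cells alone. The 1 negative fold on the list was that of the cyclin gene CYCA2;3 (log2 fold change -2.12, not past the threshold). Of 3 photosynthetic markers 0 passed (111 to 169 RPKM in russeted, 259.9 to 394 RPKM in waxy libraries). Most of that sum was PSB29, with averages of 116 RPKM in russeted and 311 RPKM in waxy skin. The other 2 had positive folds (1.27 and 1.54 on the log2 scale). No xylem marker was in the table, and no listed marker was at 0 in a library. Of all genes tested 19.2% rose, 9.31% fell and 73.8% had a positive fold. Markers that did not differ are absent from the table, so these counts do not measure the make-up of the tissue. The part of these tissues in the results below was not tested.

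Of the 31 genes tested, 11 rose and 4 fell in russeted exocarp, and 16 were not past the threshold. That is 35.5% rising, where 19.2% of all genes tested rose, and 12.9% falling, where 9.31% of all genes tested fell; the 15 calls in either direction stand beside 28.5% of all genes tested. By class, folds were positive in 6 of 7 P450s, 5 of 6 glutathione S-transferases, 7 of 13 glycosyltransferases and 2 of 5 dioxygenases. In all 20 of 31 members (64.5%) had a positive fold, where 920 of all 1246 genes tested (73.8%) had one, so the P450 and glutathione S-transferase counts lie near the share in the whole table. Scaling by TMM factors, described next, turned 1 of these signs, that of the AT4G16770-matched dioxygenase, and median-ratio factors also that of CYP76C4. The median log2 fold change was 1.5 for P450s, 2.16 for glutathione S-transferases, 1.11 for glycosyltransferases and -2.18 for dioxygenases, against 1.19 for all genes tested. The most abundant genes also lay in opposite directions, with the leading glycosyltransferase and dioxygenase lower and the glutathione S-transferase GSTU8 higher in russeted skin. The 3 russeted levels were all above the 3 waxy ones in 17 genes (53.1%; 63.1% of all listed genes) and all below in 11 (34.4%; 24.3% of all listed genes), so that 28 did not overlap, where 87.5% of all listed genes did not, and 4 did. In the authors' deposited table, 7 of the 32 genes had a higher mean and a false discovery rate under 0.05, where 25.1% of all listed genes did. A lower mean and such a rate were found in 6, where 10.8% of all listed genes had them. That made 13 genes in either direction, beside 35.9% of all listed genes.

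The calls depend on how libraries are scaled. With TMM factors, which take most listed genes to be unchanged, 0 members rose and 11 (35.5%) fell. Falling calls then prevailed in the whole table, where 3.53% of all genes tested rose and 23.8% fell, and the median of all genes tested was 0.20 on the log2 scale, against 1.19 with mapped reads. The listed genes were picked for a difference, so the assumption behind TMM factors is at odds with how they were chosen. Folds lay about 1 log2 unit lower with these factors. A negative fold that passes only with them, as in some genes below, is therefore no added support for a fall. Since a scaling moves every gene by nearly the same amount, the position of each class relative to the median of all genes tested is about the same by construction. The class median minus that of all genes was -3.38 with mapped reads and -3.40 with TMM factors for dioxygenases, and 0.96 and 0.95 for glutathione S-transferases. It was 0.31 and 0.29 for P450s and -0.08 and -0.06 for glycosyltransferases. These positions hold for the genes chosen by description. SRG1-matched genes of the dioxygenase superfamily, outside this choice, had positive folds, as given below.

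**Figure D1:**
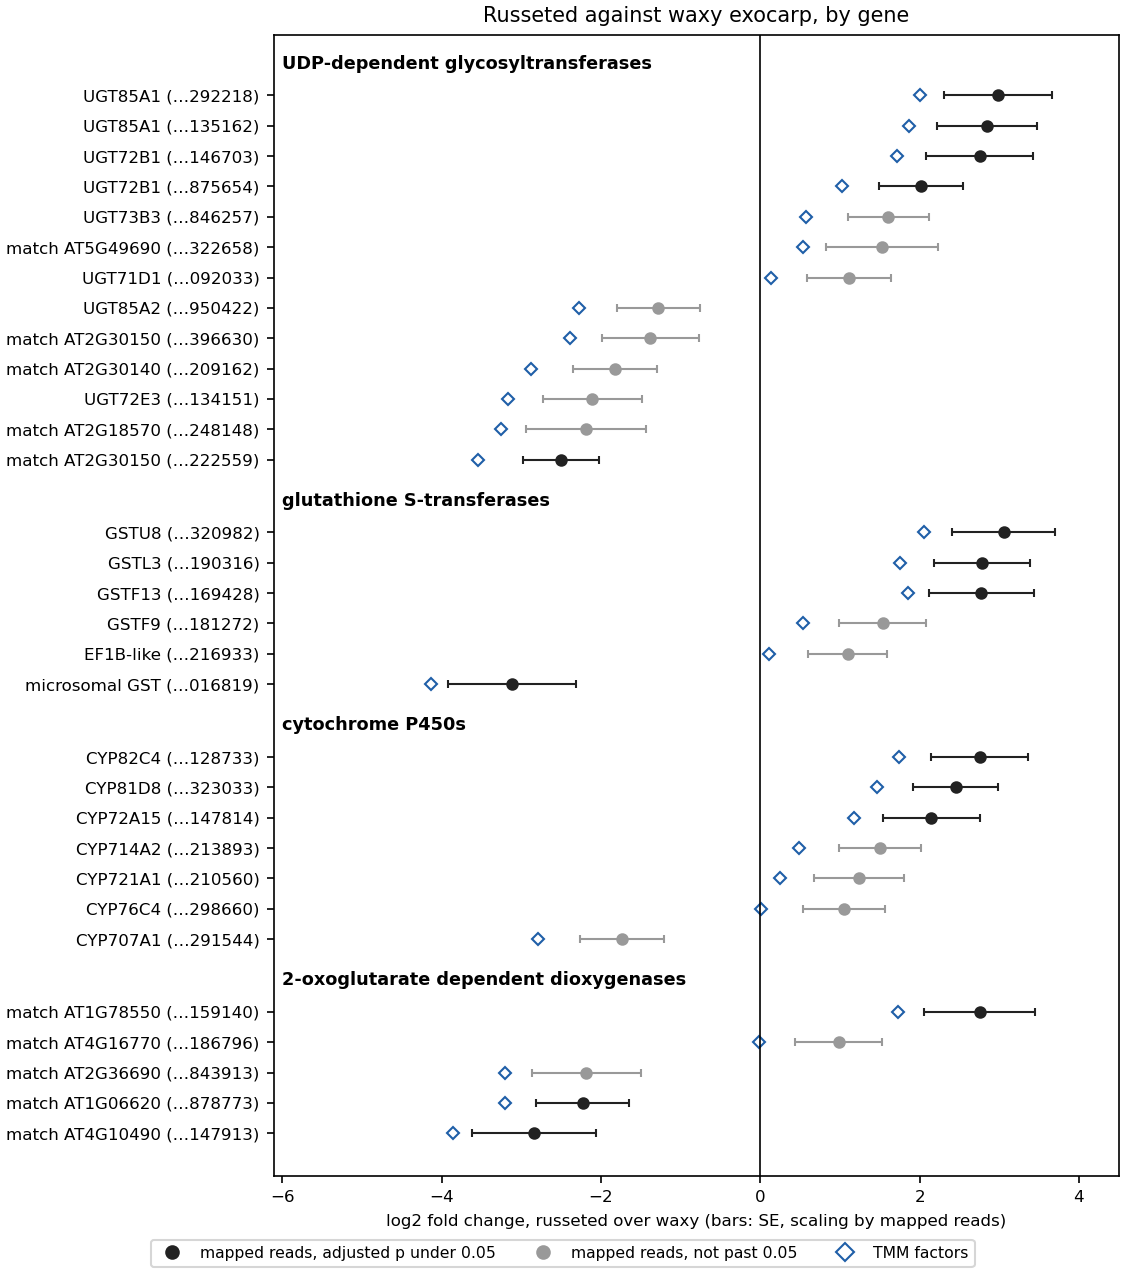
Log2 fold change of russeted over waxy exocarp (x axis) for the 31 tested genes, by enzyme class. Circles with bars are the estimate and its SE with mapped reads as library sizes, dark where the adjusted p was under 0.05. Open diamonds are the estimates with TMM factors, which lie about 1 unit further to the left; with them 0 members passed as higher and 11 as lower, where 3.53% of all genes tested passed as higher and 23.8% as lower, and the AT4G16770-matched gene changed sign.

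Among the oxidising enzymes, 3 of 7 P450 genes rose and 0 fell; TMM factors left 0 risers and 1 that fell. CYP82C4 (MDP0000128733), whose Arabidopsis match hydroxylates the coumarin fraxetin, had 10.8, 8.60 and 27.3 RPKM in St Edmund Pippin, Reinette Parmentier and Patte de Loup, against 3.07, 2.78 and 1.01 RPKM in AG94, AF42 and Gala. Patte de Loup stood well above the other russeted varieties, and the skin types did not overlap. The gene averaged 15.6 ± 10.2 RPKM (SD, n = 3) in russeted skin, against 2.29 ± 1.12 RPKM in waxy skin, and it rose by 2.75 ± 0.61 (SE) on the log2 scale (adjusted p = 0.0145; 0.0826 without Patte de Loup). CYP81D8 (MDP0000323033), a P450 that responds to stress in Arabidopsis, had 15.0, 15.2 and 28.5 RPKM in the russeted varieties, in the same order, and 3.63, 5.06 and 2.01 RPKM in the waxy ones. Patte de Loup was again the highest, and all russeted levels were above the waxy ones. The rise was 2.45 ± 0.53 on the log2 scale (adjusted p = 0.0133; 0.0571 without Patte de Loup).

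CYP72A15 (MDP0000147814) was the most abundant of the 7 P450s in russeted exocarp. Its family includes triterpene oxidases in legumes. It had 88.6, 37.8 and 72.5 RPKM in St Edmund Pippin, Reinette Parmentier and Patte de Loup, and 13.9, 24.6 and 6.38 RPKM in AG94, AF42 and Gala. The skin types were apart, but Reinette Parmentier was closer to AF42 than to the other russeted varieties. It rose by 2.15 ± 0.61 on the log2 scale, just inside the threshold (adjusted p = 0.0498). This call was lost without any 1 variety other than AF42 (adjusted p = 0.061 without Reinette Parmentier to 0.21 without Gala), and with unique reads only (0.06).

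Of the other P450s, CYP707A1 (MDP0000291544) was the one gene with a negative fold. Its Arabidopsis match inactivates abscisic acid, and the enzyme code in the table is that of abscisic acid 8'-hydroxylase. It had 17.1, 15.2 and 8.64 RPKM in the russeted varieties and 50.1, 22.9 and 63.3 RPKM in AG94, AF42 and Gala. AF42 was the waxy variety nearest to russeted levels. Its log2 fold was -1.73 ± 0.53 and not past the threshold (adjusted p = 0.0703), but it was past it without AF42 (0.0371) and with TMM factors (0.0122). Its left-out relative CYP707A3 (MDP0000297584) was scarcer, at 1.06 ± 0.75 RPKM in russeted skin, against 7.81 ± 4.56 RPKM in waxy skin, and fell (log2 fold change -2.90, adjusted p = 0.0149). That model is 288 bases long, with 5, 8 and 1 reads in the russeted and 62, 12 and 18 reads in the waxy libraries. The call was lost without St Edmund Pippin (adjusted p = 0.0619), Reinette Parmentier (0.0528) or Patte de Loup (0.0641).

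CYP714A2, which acts in gibberellin inactivation in Arabidopsis, averaged 6.67 ± 0.97 RPKM in russeted skin, against 2.31 ± 1.06 RPKM in waxy skin (MDP0000213893, log2 fold change 1.5 ± 0.52, adjusted p = 0.115). CYP76C4, whose Arabidopsis match oxidises monoterpene alcohols, averaged 21.7 ± 2.91 RPKM in russeted skin, against 10.4 ± 5.87 RPKM in waxy skin (MDP0000298660, adjusted p = 0.357). Neither overlapped between the skin types. CYP721A1 (MDP0000210560) did overlap, with 6.28 RPKM in Reinette Parmentier and 6.5 RPKM in AF42, and 14.2% of its reads were unique (adjusted p = 0.295).

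Dioxygenases of the 2-oxoglutarate class gave 1 riser and 2 that fell among 5 genes; under TMM factors there were 0 risers and 3 that fell. The table gives these genes no symbol, so they are named here by their Arabidopsis match. The gene matched to AT2G36690 (MDP0000843913) was by far the most abundant of them, with 53.3, 219 and 177 RPKM in St Edmund Pippin, Reinette Parmentier and Patte de Loup, against 896, 442 and 702 RPKM in AG94, AF42 and Gala. Every waxy level was above every russeted one, and St Edmund Pippin was the lowest library. It averaged 149.7 ± 86.0 RPKM (SD, n = 3) in russeted skin, against 680.1 ± 228 RPKM in waxy skin, 4.54-fold lower in russeted exocarp. The log2 fold change of -2.18 ± 0.68 (SE) was not past the threshold (adjusted p = 0.0768) and was past it with TMM factors (0.0228).

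The 2 dioxygenase genes that fell showed the same order among russeted varieties, with St Edmund Pippin lowest and Reinette Parmentier highest. The gene matched to AT4G10490 (MDP0000147913) had 6.40, 56.8 and 11.7 RPKM in the russeted varieties, in the order above, and 185, 70.6 and 282 RPKM in the waxy ones. Reinette Parmentier lay close to AF42, the lowest waxy variety. On the log2 scale the fold change was -2.84 ± 0.78 (adjusted p = 0.0439), and the call was lost without St Edmund Pippin (0.16), Patte de Loup (0.136), AG94 (0.0523) or Gala (0.0789), and with unique reads (0.0573). The gene matched to AT1G06620 (MDP0000878773) had 6.36, 26.7 and 23.1 RPKM in the russeted and 77.0, 124 and 62.8 RPKM in the waxy varieties. Here AF42 was the highest waxy variety, and the skin types were well apart. The log2 fold change was -2.23 ± 0.59 (adjusted p = 0.0353), with the call lost without St Edmund Pippin (0.102), Reinette Parmentier (0.0725), Patte de Loup (0.0682) or AF42 (0.0863).

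The riser, matched to AT1G78550 (MDP0000159140), was a low-level gene with 5.23, 25.7 and 17.8 RPKM in the russeted and 3.64, 0.58 and 2.95 RPKM in the waxy varieties. St Edmund Pippin was only a little above AG94. The rise was 2.75 ± 0.70 on the log2 scale (adjusted p = 0.0299), which did not hold without Reinette Parmentier (0.156), Patte de Loup (0.0542) or AF42 (0.069). Unique reads were 39.2% of its total. The last gene, matched to AT4G16770 (MDP0000186796), averaged 7.33 ± 2.79 RPKM in russeted skin, against 3.69 ± 1.26 RPKM in waxy skin, overlapped between the skin types and missed the threshold (adjusted p = 0.484). All 5 genes carry the same Pfam domain of this superfamily in the table.

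**Figure D2:**
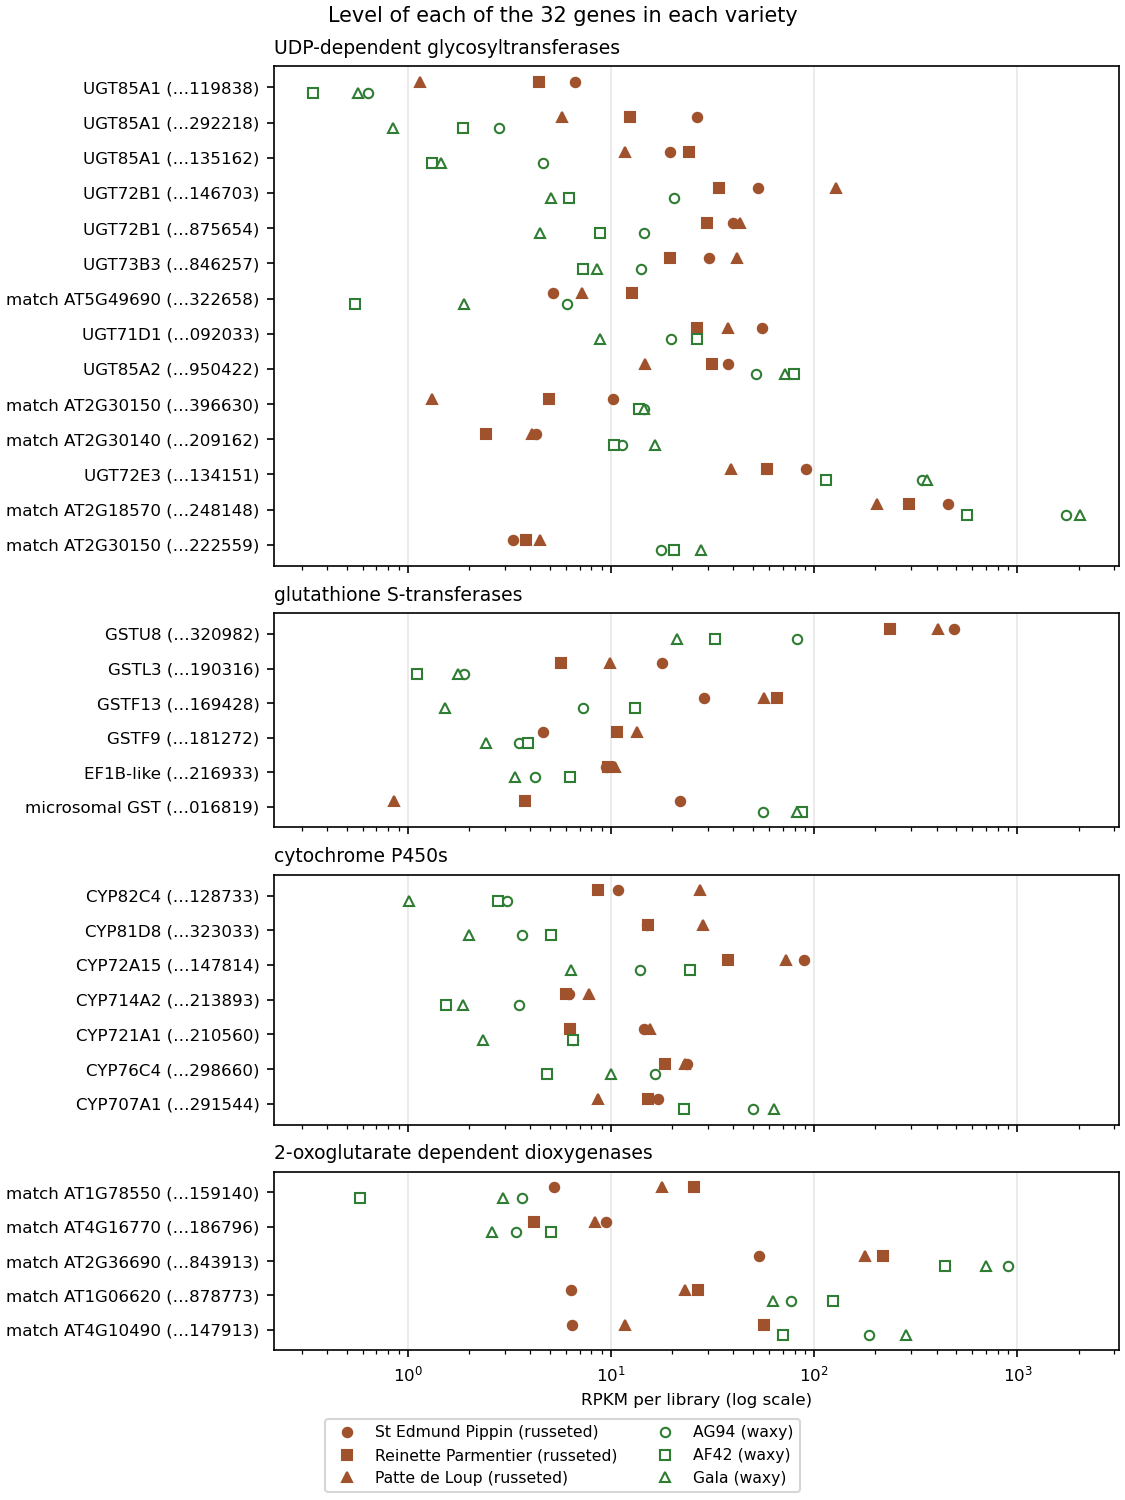
RPKM (x axis, log scale) of each of the 32 genes in each of the 6 libraries, by enzyme class. Filled brown symbols are the russeted and open green symbols the waxy varieties, drawn just above and just below each gene's line. Within a class the genes run down the page from the highest to the lowest fold, after the untested UGT85A1 model, and the most abundant gene, matched to AT2G18570, had 203 to 457 RPKM in russeted skin, against 563 to 2039 RPKM in waxy skin.

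Among the conjugating enzymes, 4 of 13 tested glycosyltransferase genes rose and 1 fell; TMM factors gave 0 risers and 6 that fell. The risers matched 2 Arabidopsis genes. Those matched to UGT72B1, which glucosylates monolignols and chlorinated anilines in Arabidopsis, were present in 2 copies with nearly all reads unique (99.7% in each). MDP0000146703 had 52.9, 34.0 and 128 RPKM in St Edmund Pippin, Reinette Parmentier and Patte de Loup, against 20.5, 6.24 and 5.06 RPKM in AG94, AF42 and Gala. Patte de Loup was the highest and AG94 the waxy variety nearest to the russeted ones. The rise was 2.75 ± 0.67 (SE) on the log2 scale (adjusted p = 0.0225), lost without St Edmund Pippin (0.0535), Patte de Loup (0.0926), AF42 (0.0726) or Gala (0.0674). MDP0000875654 had 39.9, 29.7 and 43.1 RPKM in the russeted and 14.5, 8.87 and 4.48 RPKM in the waxy varieties. The russeted levels were close together and all above the highest waxy one. It rose by 2.01 ± 0.53 (adjusted p = 0.0342), a call that was lost without any 1 variety other than AG94 (0.0687 without Reinette Parmentier to 0.14 without Gala).

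The second pair of risers matched UGT85A1, which can glucosylate the cytokinin zeatin in Arabidopsis. There were 3 such gene models, with coding lengths of 438, 558 and 873 bases, whereas the UGT85A2 gene is 1452 bases long, and whether they are separate genes was not tested. MDP0000292218 had 26.5, 12.5 and 5.73 RPKM in St Edmund Pippin, Reinette Parmentier and Patte de Loup, and 2.80, 1.86 and 0.85 RPKM in AG94, AF42 and Gala. The order of the varieties was unlike that of UGT72B1, with Patte de Loup the lowest russeted variety. It rose by 2.98 ± 0.67 on the log2 scale (adjusted p = 0.0164; 0.0856 without St Edmund Pippin), with 31.1% of its reads unique. MDP0000135162 had 19.6, 24.3 and 11.7 RPKM in the russeted and 4.63, 1.31 and 1.45 RPKM in the waxy varieties, from as few as 6 reads each in AF42 and Gala. The skin types did not overlap in any of the 3 models. It rose by 2.85 ± 0.63 (adjusted p = 0.0146; 0.0591 without Reinette Parmentier). The third model, MDP0000119838, was removed by the filter on low counts, with 42, 47 and 11 reads in the russeted and 6, 2 and 3 reads in the waxy libraries. Without the filter its log2 fold change was 2.89 ± 0.67 (adjusted p = 0.0169).

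Glycosyltransferases that were lower in russeted exocarp included the most abundant gene of the class. The gene matched to AT2G18570 (MDP0000248148), whose enzyme code in the table is that of coniferyl alcohol glucosyltransferase, had 457, 293 and 203 RPKM in St Edmund Pippin, Reinette Parmentier and Patte de Loup, against 1733, 563 and 2039 RPKM in AG94, AF42 and Gala. AG94 and Gala were far above all other libraries, while AF42 was little above St Edmund Pippin. It averaged 318 ± 129 RPKM (SD, n = 3) in russeted skin, against 1445 ± 779 RPKM in waxy skin, and its log2 fold change of -2.19 ± 0.76 (SE) was not past the threshold (adjusted p = 0.117; 0.0454 with TMM factors). UGT72E3 (MDP0000134151), which glucosylates monolignols and related phenolic acids in Arabidopsis, had the same arrangement of varieties. Its levels were 90.7, 58.4 and 39.0 RPKM in the russeted and 338, 114 and 359.8 RPKM in the waxy varieties. The log2 fold change was -2.11 ± 0.62 (adjusted p = 0.0596), past the threshold without AF42 (0.0294) and with TMM factors (0.0155).

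The gene that fell, MDP0000222559, matched to AT2G30150, had 3.29, 3.80 and 4.47 RPKM in the russeted and 17.5, 20.4 and 27.6 RPKM in the waxy varieties. Both sets were narrow and far apart. The log2 fold change was -2.50 ± 0.48 (adjusted p = 0.00749), and it stayed past the threshold without any 1 variety. Only 7.5% of its reads were unique, and on these the log2 fold change was -1.44 (adjusted p = 0.0879), so its fold is uncertain. A second gene with this match, MDP0000396630, averaged 5.51 ± 4.48 RPKM in russeted skin, against 14.3 ± 0.50 RPKM in waxy skin (adjusted p = 0.264). The AT2G30140-matched gene (MDP0000209162) averaged 3.59 ± 1.02 RPKM in russeted skin, against 12.7 ± 3.23 RPKM in waxy skin (adjusted p = 0.0549), with 25.3% unique reads. UGT85A2 (MDP0000950422) averaged 28.0 ± 12 RPKM in russeted skin, against 67.8 ± 14.6 RPKM in waxy skin, with a log2 fold change of -1.28 ± 0.52 that was not past the threshold (adjusted p = 0.211). All of these were below every waxy level in each russeted variety.

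The other 3 glycosyltransferases had positive folds that were not past the threshold. UGT73B3, a flavonol glucosyltransferase in Arabidopsis, averaged 30.5 ± 11 RPKM in russeted skin, against 9.96 ± 3.61 RPKM in waxy skin (MDP0000846257, adjusted p = 0.0763) and did not overlap. UGT71D1 (MDP0000092033) overlapped, with 26.4 RPKM in Reinette Parmentier and 26.5 RPKM in AF42 (adjusted p = 0.326). The gene matched to AT5G49690 (MDP0000322658) overlapped as well, with 5.19 RPKM in St Edmund Pippin and 6.09 RPKM in AG94 (adjusted p = 0.296), 27.3% of its reads were unique, and it was past the threshold without AG94 (0.0346).

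Of the 6 genes described as glutathione S-transferases, 3 rose and 1 fell; with TMM factors none rose and the same 1 fell. GSTU8 (MDP0000320982), of the plant-specific tau class, had the highest mean level of the 32 genes in russeted exocarp. It had 487, 237 and 405 RPKM in St Edmund Pippin, Reinette Parmentier and Patte de Loup, against 81.9, 32.6 and 21.1 RPKM in AG94, AF42 and Gala. All russeted varieties stood far above the waxy ones. The averages were 376 ± 127 RPKM (SD, n = 3) in russeted skin, against 45.2 ± 32.3 RPKM in waxy skin, 8.33-fold higher in russeted exocarp, with a log2 fold change of 3.06 ± 0.65 (SE, adjusted p = 0.0126), and 99.3% of its reads were unique. It kept its call without any 1 variety (highest adjusted p = 0.0453).

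GSTL3 (MDP0000190316), of the lambda class, whose members reduce glutathione conjugates, had 17.9, 5.66 and 9.84 RPKM in the russeted and 1.88, 1.11 and 1.76 RPKM in the waxy varieties. St Edmund Pippin was the highest, and the skin types did not overlap. It rose by 2.79 ± 0.60 on the log2 scale (adjusted p = 0.0132; 0.0505 without St Edmund Pippin). GSTF13 (MDP0000169428, ATGSTF13 in the table), of the phi class, had 28.6, 65.6 and 56.9 RPKM in the russeted and 7.31, 13.2 and 1.52 RPKM in the waxy varieties. In this gene St Edmund Pippin was the lowest russeted variety, still above every waxy one. The rise was 2.78 ± 0.66 (adjusted p = 0.0201; 0.0861 without Reinette Parmentier), with 35.4% of reads unique. The second phi-class gene, GSTF9 (MDP0000181272), averaged 9.58 ± 4.49 RPKM in russeted skin, against 3.29 ± 0.78 RPKM in waxy skin and missed the threshold (adjusted p = 0.125; 36.3% unique reads).

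The microsomal glutathione S-transferase gene (MDP0000016819), whose product sits in membranes and belongs to a protein family unrelated to the soluble enzymes, went the other way. It had 21.8, 3.77 and 0.86 RPKM in St Edmund Pippin, Reinette Parmentier and Patte de Loup, against 56.2, 86.7 and 82.2 RPKM in AG94, AF42 and Gala. The waxy varieties were close together, while the russeted ones differed 25.3-fold among themselves, the widest spread within a skin type of the 32 genes. Its log2 fold change was -3.11 ± 0.80 (adjusted p = 0.0316), not held without Reinette Parmentier (0.17), Patte de Loup (0.0564) or AF42 (0.0525). Of its reads 13.3% were unique, and on unique reads the log2 fold change was -3.53 (adjusted p = 0.0116). The sixth gene (MDP0000216933) is described as a translation elongation factor EF1B with a glutathione S-transferase-like domain rather than as an enzyme of this class, and averaged 9.88 ± 0.54 RPKM in russeted skin, against 4.61 ± 1.5 RPKM in waxy skin (adjusted p = 0.284).

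Summed over a class, RPKM was set by a few genes. Glycosyltransferases added up to 839.7, 557 and 543 RPKM in St Edmund Pippin, Reinette Parmentier and Patte de Loup, against 2249, 854 and 2561 RPKM in AG94, AF42 and Gala. St Edmund Pippin and AF42 were almost level. The gene matched to AT2G18570 made up 49.1% of this sum in russeted and 76.5% in waxy exocarp, and without it the sums overlapped, at 329 ± 59.7 RPKM (SD, n = 3) in russeted skin, against 443 ± 132 RPKM in waxy skin (exact permutation test, two-sided, p = 0.3). Dioxygenases came to 217 ± 127 RPKM in russeted skin, against 953 ± 275 RPKM in waxy skin, and the gene matched to AT2G36690 held 69.0% of the russeted and 71.3% of the waxy sum. Without that gene they remained apart, at 67.3 ± 43.3 RPKM in russeted skin, against 273 ± 74.9 RPKM in waxy skin.

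The 7 P450s reached 156 ± 41.9 RPKM in russeted skin, against 84.1 ± 14.7 RPKM in waxy skin (log2 difference 0.86), but the sign of this difference turned with TMM factors (-0.15). This sum holds none of the P450 rows left out by symbol. Of those, CYP716A1 (MDP0000440922) had 54.1 ± 27.9 RPKM in russeted skin, against 374 ± 32.7 RPKM in waxy skin, and fell (adjusted p = 0.0173). CYP707A3 fell as well. The CYP86A1 and CYP86B1 rows rose, with russeted averages of at most 67.8 RPKM. A sum with the left-out rows was not made. Among the 7 P450s the leading gene was CYP72A15 in russeted (42.6% of the sum) but CYP707A1 in waxy exocarp (54.0%). Without CYP72A15 the P450 sums overlapped between the skin types, with Reinette Parmentier below AG94 and Gala. Glutathione S-transferases came to 466 ± 121 RPKM in russeted skin, against 137 ± 22.1 RPKM in waxy skin. The tau-class gene GSTU8 held 80.7% of the russeted sum, and the microsomal gene 54.7% of the waxy sum. Without GSTU8 the sums were 89.7 ± 6.75 RPKM in russeted skin, against 91.8 ± 19.0 RPKM in waxy skin. The log2 difference was -0.02 with mapped reads (exact permutation test, two-sided, p = 1) and -1.03 with TMM factors. These near-equal sums hide opposite differences in single genes. Of the 6 genes, 5, GSTU8 among them, had every russeted RPKM above every waxy one. Only the microsomal gene was lower, with a russeted mean of 8.81 RPKM, against a waxy mean of 75.0 RPKM. With mapped reads the 3 russeted sums of each class as chosen lay on one side of the 3 waxy sums, which gives p = 0.1 in an exact permutation test, the smallest p that 3 against 3 libraries allow. With TMM factors this held for the other classes, while P450s overlapped (exact permutation test, two-sided, p = 0.5). The genes were picked for a difference in these same libraries, and 87.5% of all listed genes did not overlap. Sums held by a few such genes lie apart largely by that choice, so no conclusion is drawn from the permutation tests on sums.

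**Figure D3:**
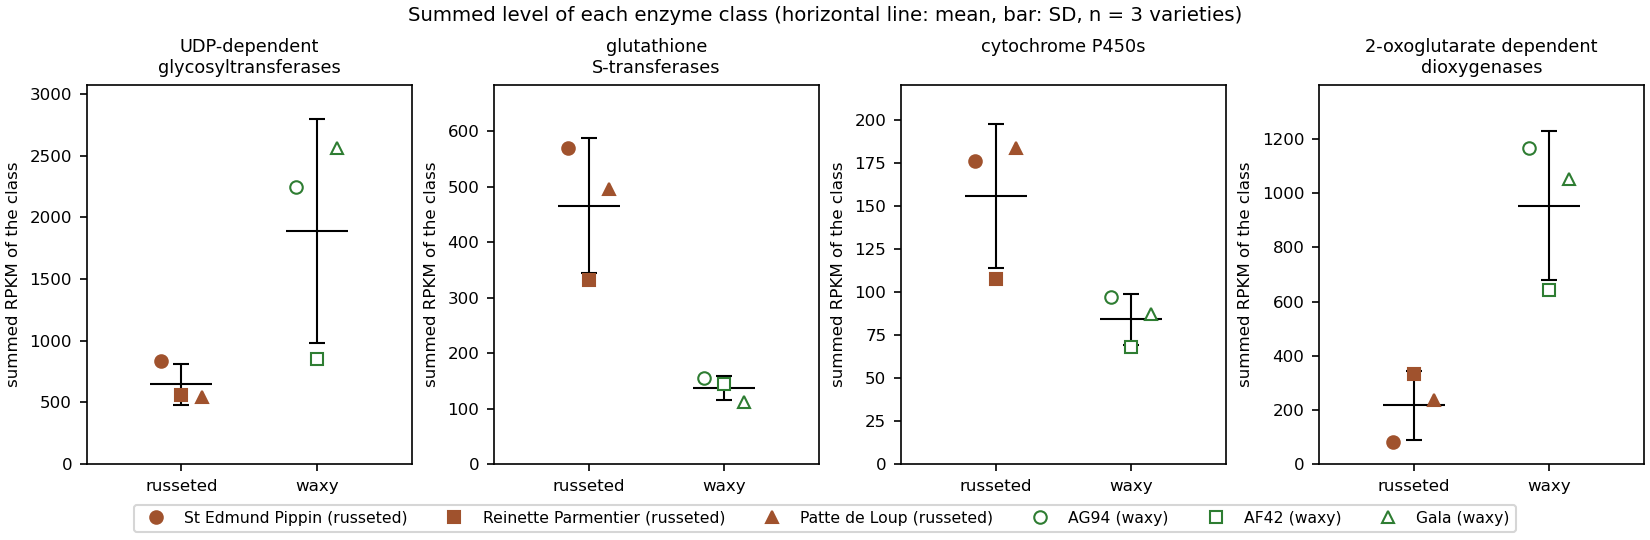
Summed RPKM of each enzyme class (y axis, from 0) in the 3 russeted and the 3 waxy varieties. Points are libraries, and the horizontal line and bar are the mean and SD (n = 3). Russeted libraries were lower in glycosyltransferases and the 5 dioxygenases chosen by description, and higher in glutathione S-transferases and the 7 P450s. The P450 rows left out by symbol are not in the sum, and with TMM factors the P450 difference changed sign. Glycosyltransferases were nearly level between St Edmund Pippin (839.7 RPKM) and AF42 (854 RPKM).

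Ratios between genes of the same library do not depend on how libraries are scaled, and 4 are given here to show their size. They were chosen after the levels had been seen, each with a numerator that was higher and a denominator that was lower in all russeted libraries, so that the skin types could not overlap and no test was made. The 2 UGT72B1 copies together stood at 1.02, 1.09 and 4.40 times UGT72E3 in St Edmund Pippin, Reinette Parmentier and Patte de Loup, and at 0.103, 0.133 and 0.0265 times UGT72E3 in AG94, AF42 and Gala. Both enzymes act on monolignols in Arabidopsis. The 3 UGT85A1 models together had 1.40, 1.31 and 1.27 times the level of UGT85A2 in the russeted varieties and 0.156, 0.0440 and 0.0398 times in the waxy ones. These sums take the models as separate genes. Taken as pieces of 1 gene, with RPKM weighted by coding length, the ratio was 0.502, 0.407 and 0.394 in the russeted varieties and 0.0501, 0.0160 and 0.0126 in the waxy ones, below 1 in all libraries. GSTU8 had 22.4, 62.9 and 470.5 times the level of the microsomal gene in the russeted varieties and 1.46, 0.376 and 0.256 times in the waxy ones. For the classes, glutathione S-transferases summed to 7.05, 1.00 and 2.08 times the dioxygenases in the russeted varieties and to 0.133, 0.224 and 0.107 times in the waxy ones. A ratio shows that its parts changed unequally, not which of them changed.

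**Figure D4:**
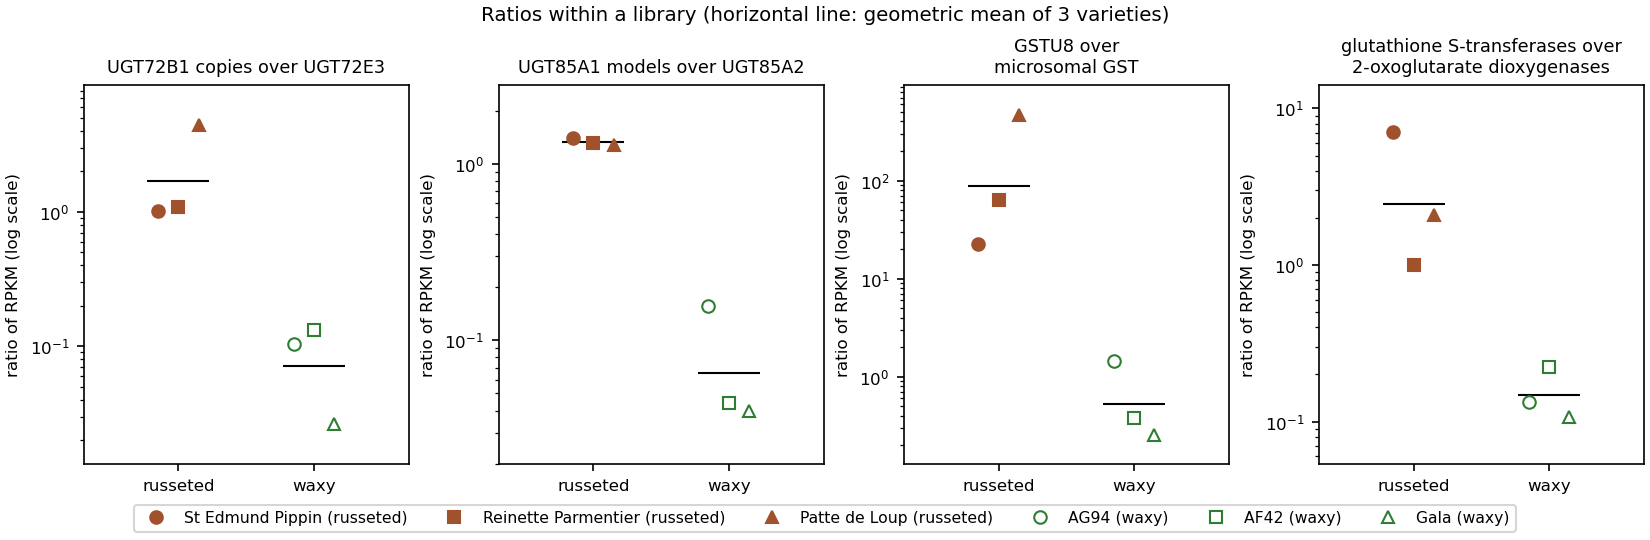
Ratios of RPKM within each library (y axis, log scale) in the 3 russeted and the 3 waxy varieties: UGT72B1 over UGT72E3, UGT85A1 over UGT85A2, GSTU8 over the microsomal glutathione S-transferase, and the sum of glutathione S-transferases over that of dioxygenases. Points are libraries and the line is the geometric mean (n = 3). Russeted ratios lay above waxy ones in each panel, which the choice of the genes fixes; the UGT85A1 ratio, summed over 3 models as separate genes, was 1.27 to 1.40 in russeted and 0.0398 to 0.156 in waxy skin.

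The order of the varieties within a skin type differed from gene to gene. Across the 32 genes, Pearson's r of log2(RPKM + 1) was 0.76 to 0.86 within russeted skin, 0.92 to 0.97 within waxy skin and 0.30 to 0.71 across the skin types. These are descriptions across genes, which are not independent and share their libraries and depth. The genes were picked for a difference between the skin types in these libraries, so a lower r across skin types is built in. Over all listed genes r was 0.84 to 0.88 within russeted skin, 0.91 to 0.94 within waxy skin and 0.50 to 0.68 across the skin types. Among the 20 tested genes with a positive fold, Patte de Loup was the highest russeted variety in 9, St Edmund Pippin in 7 and Reinette Parmentier in 4, and Gala was the lowest waxy variety in 13. Among the 11 with a negative fold, AF42 was the lowest waxy variety in 7.

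Around these enzymes, few genes of related steps were in the table. MRP3 (MDP0000226629), an ABC transporter of a family that carries glutathione conjugates, was the only gene on the list for export of conjugates and rose (12.9 RPKM on average in russeted skin, against 2.04 RPKM in waxy skin; log2 fold change 2.69 ± 0.61, adjusted p = 0.0163). The one gene of glutathione metabolism outside the transferases, the gamma-glutamyl hydrolase gene GGH2 (MDP0000141429), was not past the threshold (log2 fold change 1.55, adjusted p = 0.147). Among 5 genes on the list of other iron oxygenases 0 passed. Of these, 4 matched SRG1, a 2-oxoglutarate dioxygenase of the same superfamily without that word in its description, with folds of 1.60 to 1.89 on the log2 scale, unlike the negative median of the 5 dioxygenases described above. That negative median therefore belongs to the 5 genes chosen by description, and not to all genes of the superfamily in the table. The fifth, ACO1, is described as an aconitase and entered by its symbol alone.

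Of 6 flavonoid and phenylpropanoid genes 1 fell and 0 rose, the cinnamyl alcohol dehydrogenase gene CAD9 (MDP0000037251, log2 fold change -3.32 ± 0.72, adjusted p = 0.0142). This list held 2 further P450 genes, both C4H, which opens the phenylpropanoid pathway, and neither was past the threshold (MDP0000602841 with a log2 fold change of 1.86 and adjusted p = 0.109; MDP0000245663 with 1.00 and 0.523). The lists for electron donors of P450s, beta-glucosidases and glycosyltransferases outside the 14 had 0 genes in the table.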

How the data were processed

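RNA from 6 libraries, 1 per variety, was sequenced by the authors. Per the file headers, the authors counted reads per gene model in CLC Genomics Workbench 6.5 and deposited total gene reads and unique gene reads (counts), and RPKM. They also deposited the mean RPKM of each skin type. From Baggerley's test come, per the file headers, a signed fold (a score, negative where russeted is lower), its log2, a p-value and a false discovery rate. Not given in the sources used here: genome build, aligner settings. Total reads include reads shared with other genes, so near-identical copies are uncertain. Genes carry the symbol of their Arabidopsis match; 0 of 1261 identifiers matched the RefSeq table used, so no coordinates or sequences are given.

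Mapped reads per library were recovered from reads, coding length and RPKM (genes with at least 200 reads), and used as library sizes in edgeR 4.0.16 (R 4.3.3), quasi-likelihood, two-sided, after its filter on low counts, which removed 15 genes. P values were adjusted over 6449 genes, the number that the deposited p and false discovery rates imply; genes not listed were taken to have larger p. SE was taken as log2 fold over root F. Ratios and class sums used RPKM, with TMM and median-ratio factors and the UGT85A1 models as 1 gene, added as alternatives after the data had been seen. Alternatives were TMM factors, median-ratio factors, DESeq2 1.42.0, no filter, unique reads, adjustment over the genes tested, a replicate block and leaving out each variety. The fit was also run on simulated counts, with equal numbers of raised and lowered genes among unchanged ones and adjustment over the genes tested. The listed genes were instead picked for a difference, so that run does not bear on the calls here. The text names members past the threshold, class leaders, members with an adjusted p of 0.05 to 0.1, those with under 50% unique reads and those that overlap; others, and the ratios, were named after their values were seen. The members and lists were chosen with earlier results of these data known. The labels name no molecular identifiers, and they do not say that fruit of a variety were sampled more than once.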

Additional observations from a re-analysis of the deposited data

How the results depend on the processing

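Directions of the 31 tested genes held under every alternative run, except that the AT4G16770-matched gene MDP0000186796 had a log2 fold change of -0.0192 with TMM and -0.0343 with median-ratio factors, and CYP76C4 (MDP0000298660) of -0.0103 with median-ratio factors. The summed P450 level changed sign, with a log2 difference of -0.151 with TMM and -0.169 with median-ratio factors, alternatives chosen after seeing the data; without GSTU8, the glutathione S-transferase sum gave -0.17 to 0.13 when 1 variety was left out. Counts of calls moved more. With TMM factors 0 members rose and 11 fell (glycosyltransferases 0 and 6, P450s 0 and 1, glutathione S-transferases 0 rising, dioxygenases 0 rising; all genes 44 and 296), with medians of 0.24 for members, 0.14 for glycosyltransferases, 0.49 for P450s, 1.15 for glutathione S-transferases and 0.20 for all genes. Median-ratio factors gave 0 and 11 (0 and 6, 0 and 1, 0 rising, 0 rising; all genes 43 and 296), with medians of 0.23, 0.13, 0.47, 1.13 and 0.18 in that order. DESeq2 gave 10 falling members (5 glycosyltransferases, 1 P450; all genes 540 rising and 265 falling), and adjustment over the genes tested 10 (5 and 1; all genes 597 and 290). On unique reads 2 members fell, with 0 glycosyltransferases and 1 dioxygenase. Apart from the larger family of tests and the scaling, whose construction shifts the counts, the cause was not tested.

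Leaving out 1 variety, which leaves fewer libraries, gave 6 to 12 rising and 1 to 4 falling members: glycosyltransferases 1 to 6 and 1 to 2, P450s 0 to 3 and 0 to 1, glutathione S-transferases 2 to 3 and 0 to 1, dioxygenases 0 to 1 and 0 to 1; all genes 134 to 194 and 67 to 105. Of the 15 calls, 2 (GSTU8 and MDP0000222559) held in all 6 such fits. The replicate numbers did not pair the libraries (correlations of same-numbered deviations -0.09, -0.02 and -0.09); with them as a replicate block 9 members rose and 4 fell, with 0 rising dioxygenases, and 2 calls were lost, CYP72A15 (adjusted p = 0.0709) and the AT1G78550-matched gene. Low counts limit the UGT85A1 models most, with 2 to 6 reads in some waxy libraries.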

Other observations

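Some gene models differ in form from the enzymes they match. CYP76C4 (MDP0000298660) is 2415 bases long in the table and carries both glutathione S-transferase Pfam domains beside the P450 domain, so reads of either part enter its count. CYP72A15 (MDP0000147814) is 2640 bases long, whereas the other P450 models apart from these run from 681 to 1575 bases. Of the 14 glycosyltransferase models, 9 carry the UDP-glycosyltransferase Pfam domain, and all 7 P450s carry theirs.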
